A study of Mus musculus with 10 samples.

Results

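Activated_3 macrophages are 1 of the 8 fine states into which the submitters divided the macrophages of the mouse hippocampus, and they were taken here as every cell whose deposited class is Macrophage and whose fine macrophage state is Activated_3. This gave 564 cells, which is 0.818% of 68914 annotated cells and 19.5% of 2886 macrophages with a state. All 564 carry macrophage cluster number 4 and the coarse state Activated, which they share with Activated_1 (646 cells) and Activated_2 (537 cells). A microglial state of the same name is a different set of cells. Hippocampi were taken from male C57BL/6 mice, wild type and 11 weeks of age, 3 days after injection into the hippocampus of each side. Neurofilament light chain at 1 mg/ml had been injected either whole (FL-NfL, 3 libraries) or as its coiled-coil part (CC-NfL, 3 libraries), and 4 libraries came after vehicle, numbers equal to those of the mice in the design text. All groups therefore share the injection wound, the enzymatic dissociation with actinomycin D and the sort for live cells, and no group received an unrelated protein.

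Macrophages of the brain are of more than one origin. Long-lived macrophages sit at its borders, in the meninges, around vessels and in the choroid plexus, and monocytes from the blood enter the tissue after damage and turn into macrophages there. NfL belongs to the intermediate filaments of the axon and leaves neurons when they are damaged. Lyz2 (a lysozyme of myeloid cells), Ms4a7 (a membrane protein found in brain macrophages more than in microglia) and Ccr2 (the chemokine receptor by which monocytes leave the bone marrow) are usual markers of such cells. The table analysed here holds names and map positions of cells and no gene values, so the name Activated_3 is the submitters' and could not be set against these markers.

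Libraries held 3150 to 14141 annotated cells and 52 to 822 macrophages. Batch b1, as the labels name it, comprised 2 libraries of each group with 28.7% to 58.0% of barcodes annotated. Batch b2 comprised 1 FL-NfL, 1 CC-NfL and 2 vehicle libraries with 79.3% to 82.7% annotated. Of the Activated_3 cells, 9 (1.60%) had a barcode also seen in an annotated cell of another library, against 1.55% of all annotated cells, and in 0 of the 9 was the other cell Activated_3 too.

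The first comparison, FL-NfL against vehicle, addressed the response to the whole protein. Activated_3 macrophages rose after FL-NfL, and they were a rare population after vehicle. The 3 FL-NfL libraries held 114, 35 and 187 Activated_3 cells, against 5, 4, 8 and 4 in the 4 vehicle libraries. As a percentage of annotated cells these were 2.70%, 1.11% and 1.65% after FL-NfL, against 0.129%, 0.122%, 0.0820% and 0.0455% after vehicle. Every FL-NfL library lay above every vehicle library, and the groups did not overlap. The same held for Activated_1, Activated_2 and MHC2_high_2. For MHC2_low and MHC2_high_1, 2 of 3 FL-NfL libraries lay above all vehicle libraries. The means were 1.82% ± 0.809 after FL-NfL (SD, n = 3) and 0.0945% ± 0.0387 after vehicle (SD, n = 4), a ratio of 19.3. The log2 odds ratio was 4.13 (SE 0.52, 95% interval 2.93 to 5.33). Limma's moderated test, with batch as a term and Benjamini-Hochberg adjustment over 25 cell classes and states, gave adjusted p = 0.000902. It called 5 of the 25 (20%), all higher, and Activated_3 had the smallest adjusted p of them. The exact two-sided permutation test of the percentage gave p = 0.0286 over libraries, which is the smallest that these 7 libraries allow, and 0.0556 within batch, likewise the smallest. The means within batch were 1.91% after FL-NfL and 0.125% after vehicle in b1, and 1.65% after FL-NfL (1 library) and 0.0637% after vehicle in b2.

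The vehicle values rest on 21 cells in all, and exact 95% intervals (Clopper-Pearson) show how few that is. They ran from 0.0124% to 0.311% over the 4 vehicle libraries, while the lowest bound of any FL-NfL library was 0.775%. These intervals cover counting error alone and take each cell as independent. Some vehicle Activated_3 cells lay at almost the same position on the submitters' map of macrophages. An example is the pair at -3.509 and -29.37 and at -3.505 and -29.37. Whether such pairs are separate cells was not tested. A share of annotated cells cannot tell more Activated_3 cells from fewer recovered cells of other kinds.

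CC-NfL was set against vehicle to see the response to the coiled-coil part on its own. Activated_3 macrophages also rose after CC-NfL. The 3 CC-NfL libraries held 19, 52 and 136 Activated_3 cells, or 0.439%, 0.863% and 0.962% of annotated cells. All 3 lay above the highest vehicle library at 0.129%. This was also so for Activated_1, Activated_2 and MHC2_high_2, and for 0 of 3 libraries in MHC2_low and MHC2_high_1. The mean was 0.755% ± 0.278 after CC-NfL (SD, n = 3), 7.99 times the vehicle mean of 0.0945%. The log2 odds ratio was 2.87 (SE 0.52, 95% interval 1.67 to 4.06), with adjusted p = 0.0123 in limma. Limma called 4 of 25 items (16%), all of them macrophage states and all higher. None of these 4 reached 10 cells in any vehicle library. They entered the test through the NfL libraries, which favours a rise. With no filter on items the adjusted p of Activated_3 was 0.0151 in limma. The means within batch were 0.651% after CC-NfL and 0.125% after vehicle in b1, and 0.962% after CC-NfL (1 library) and 0.0637% after vehicle in b2. The exact permutation p was 0.0286, and 0.0556 within batch, where no smaller value is possible. The limma call ended without CC-NfL replicate 2 (adjusted p = 0.0546), without CC-NfL replicate 3 (0.151), on the arcsine scale (0.0651) and in batch b1 alone, where the log2 odds ratio was 2.18 (0.378). FL-NfL and CC-NfL were compared with the same 4 vehicle libraries, which makes their estimates dependent on each other.

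With both proteins pooled, all 6 NfL libraries lay above all 4 vehicle libraries. They did so too for Activated_1, Activated_2 and MHC2_high_2, against 2 of 6 for MHC2_low and for MHC2_high_1. For Activated_3 the group values were as follows. The mean was 1.29% ± 0.796 over the NfL libraries (SD, n = 6), against 0.0945% ± 0.0387 after vehicle (SD, n = 4), which gave a log2 odds ratio of 3.50 (SE 0.44) with adjusted p = 0.000912 in limma, where 5 of 25 items (20%) were called. The exact permutation p was 0.0190 over all splits and 0.0333 within batch. In batch b1 alone the log2 odds ratio was 2.93 and the call ended (adjusted p = 0.0563).

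**Figure D1:**
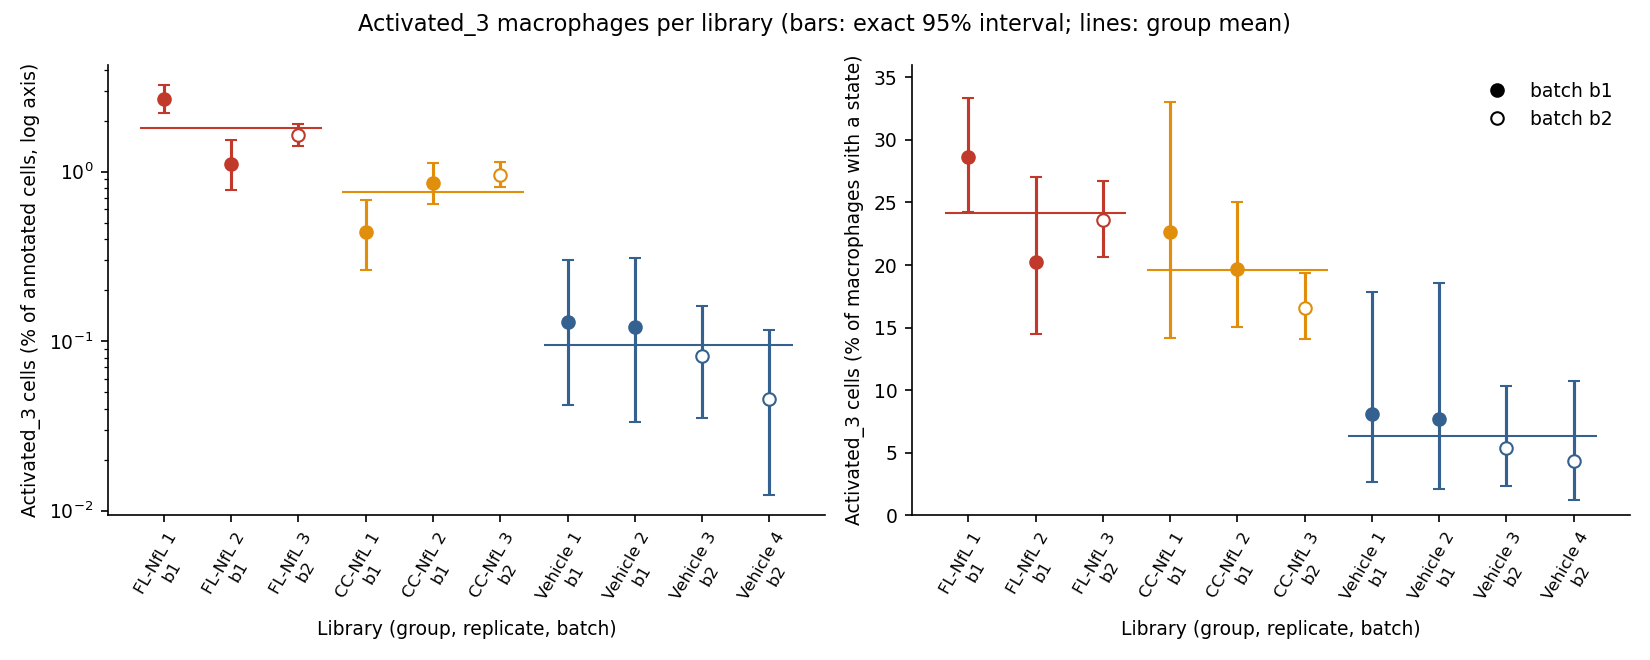
Activated_3 macrophages in each library as a percentage of annotated cells (left, log axis) and of macrophages with a state (right), in FL-NfL, CC-NfL and vehicle libraries. Points are libraries, filled for batch b1 and open for b2, bars are exact 95% intervals and lines are group means. The 6 NfL libraries lie above the 4 vehicle libraries in both panels, at 0.439% to 2.70% against 0.0455% to 0.129% of annotated cells. Activated_1 and Activated_2, which are not drawn, were separated in the same way on both measures.

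The proteins were then compared with each other. Every FL-NfL library (1.11% to 2.70%) lay above every CC-NfL library (0.439% to 0.962%), and the log2 odds ratio was 1.26 (SE 0.55, 95% interval -0.01 to 2.53). This did not pass the test (adjusted p = 0.426, unadjusted p = 0.0508 in limma). Limma called 0 of 25 items (0%), the quasi-binomial model also called 0, and 1 item (4%) had an unadjusted p under 0.05 in limma. The exact permutation p was 0.100, the smallest that 3 against 3 libraries allow. The interval holds no difference as well as a difference of more than 2 on the log2 scale. The estimate was 0.58 without the 3 libraries numbered 1 of each group. Among these, FL-NfL replicate 1 had the highest share of annotated cells of any library and CC-NfL replicate 1 the lowest of the NfL libraries. The separation of the proteins held for annotated cells and not for all barcodes, of which 28.7% to 82.7% were annotated. Over all barcodes Activated_3 made up 0.774%, 0.644% and 1.37% in the FL-NfL libraries and 0.207%, 0.499% and 0.762% in the CC-NfL libraries, against 0.0366% to 0.0674% in the vehicle libraries. FL-NfL replicate 2 then lay below CC-NfL replicate 3, FL-NfL replicate 3 was the highest library, and the log2 odds ratio between the proteins was 1.04 (adjusted p = 0.838 in limma). Both groups stayed above vehicle on this scale, at 3.93 for FL-NfL (adjusted p = 0.000889) and 2.90 for CC-NfL (adjusted p = 0.00581).

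The state also took a larger part of the macrophages themselves. Activated_3 made up 28.6%, 20.2% and 23.6% of macrophages with a state in the FL-NfL libraries and 22.6%, 19.7% and 16.6% in the CC-NfL libraries, against 8.06%, 7.69%, 5.37% and 4.35% in the vehicle libraries. The NfL libraries lay between 16.6% and 28.6% and the vehicle libraries between 4.35% and 8.06%, so these did not overlap. The ranges of the FL-NfL and CC-NfL libraries did. All 6 NfL libraries also lay above all vehicle libraries for Activated_1 and Activated_2, and 5 of 6 for MHC2_high_2. Below all vehicle libraries lay 6 of 6 for MHC2_low and 3 of 6 for MHC2_high_1. Limma over 6 macrophage states gave log2 odds ratios of 2.06 for FL-NfL (SE 0.33, adjusted p = 0.00122) and 1.68 for CC-NfL (SE 0.33, adjusted p = 0.00266) against vehicle. It called 5 of 6 states (83.3%) in each, so most macrophage states passed this test, in both directions. After FL-NfL the 3 activated states and MHC2_high_2 were higher within macrophages and MHC2_low was lower (-2.40, adjusted p = 0.00122). After CC-NfL the 3 activated states were higher, and MHC2_low (-2.14, adjusted p = 0.00266) and MHC2_high_1 (-2.53, adjusted p = 0.0350) were lower. Shares within macrophages add up to a fixed total, and p-values pooled over 6 such states may be too small. Both calls ended in batch b1 alone, at 1.77 for FL-NfL (adjusted p = 0.0800) and 1.53 for CC-NfL (adjusted p = 0.0990). For both proteins together limma called all 6 states (100%), 4 higher and 2 lower, with a log2 odds ratio of 1.87 for Activated_3 (SE 0.28, adjusted p = 0.000584), and the exact permutation p of the percentage was 0.00476, the smallest these libraries allow, and 0.0111 within batch.

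Between the proteins the share of macrophages was 24.2% ± 4.23 after FL-NfL and 19.6% ± 3.01 after CC-NfL (SD, n = 3 each). The log2 odds ratio was 0.37 (95% interval -0.43 to 1.18, adjusted p = 0.782), and limma called 0 of 6 states, none of which was under 0.05 before adjustment (0%). The quasi-binomial model, which weights libraries by their cells, gave 0.57 with adjusted p = 0.0392 and was the only setting tried under which this difference passed. It called 1 of 6 states (16.7%), which was Activated_3.

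Among the other fine states, the 3 activated states and MHC2_high_2 were higher after each protein as shares of annotated cells, whereas MHC2_low and MHC2_high_1 did not pass. MHC class II molecules, after which these states are named, present antigen to helper T cells. Activated_1 made up 1.30% ± 0.562 of annotated cells after FL-NfL and 1.02% ± 0.986 after CC-NfL (SD, n = 3 each), against 0.0592% ± 0.0833 after vehicle (SD, n = 4). Its log2 odds ratios were 5.04 for FL-NfL (SE 1.02, adjusted p = 0.00600 in limma) and 4.28 for CC-NfL (SE 1.02, adjusted p = 0.0220). Activated_2 made up 1.26% ± 0.744 after FL-NfL and 0.792% ± 0.659 after CC-NfL, against 0.0280% ± 0.0326 after vehicle, with log2 odds ratios of 5.59 (SE 1.04, adjusted p = 0.00460) and 4.86 (SE 1.04, adjusted p = 0.0171) in limma.

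Activated_3 was the activated state with the smaller estimates and the smaller standard errors. It was found in all 4 vehicle libraries, while vehicle library 1 held 0 Activated_1 and 0 Activated_2 cells and vehicle library 4 held 0 Activated_2 cells. A count of 0 allows up to 3 cells, which is 0.0774% of the annotated cells of vehicle library 1 and 0.0341% of those of vehicle library 4. The fitted estimates of Activated_1 and Activated_2 depend on the 0.5 cells added to such counts.

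MHC2_high_2 had 0.878% ± 0.183 after FL-NfL and 0.481% ± 0.311 after CC-NfL (SD, n = 3 each), against 0.0713% ± 0.0436 after vehicle (SD, n = 4), and log2 odds ratios of 3.67 (adjusted p = 0.00460) and 2.53 (adjusted p = 0.0306) in limma. MHC2_low had 0.810% ± 0.168 after FL-NfL and 0.507% ± 0.241 after CC-NfL, against 0.550% ± 0.202 after vehicle, with log2 odds ratios of 0.48 and -0.27. MHC2_high_1 had 1.04% ± 0.660 after FL-NfL and 0.330% ± 0.115 after CC-NfL, against 0.520% ± 0.272 after vehicle, with log2 odds ratios of 0.79 and -0.62. Granulocytes made up 0.0893% ± 0.0550 after FL-NfL and 0.0723% ± 0.0679 after CC-NfL (SD, n = 3 each), against 0.0738% ± 0.0857 after vehicle (SD, n = 4). The proliferating state made up 0.106% ± 0.0966 after FL-NfL and 0.0758% ± 0.108 after CC-NfL, against 0.0420% ± 0.0542 after vehicle. Both of these states averaged under 10 cells per library and were not tested. The class of other immune cells passed after FL-NfL (2.16, adjusted p = 0.0137 in limma). It made up 1.54%, 1.27% and 1.47% of annotated cells in the FL-NfL libraries and 0.301%, 1.01% and 1.27% in the CC-NfL libraries, against 0.246% to 0.426% in the vehicle libraries. CC-NfL replicate 1, the NfL library with the lowest Activated_3 share, was also the one that lay in the vehicle range here.

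**Figure D2:**
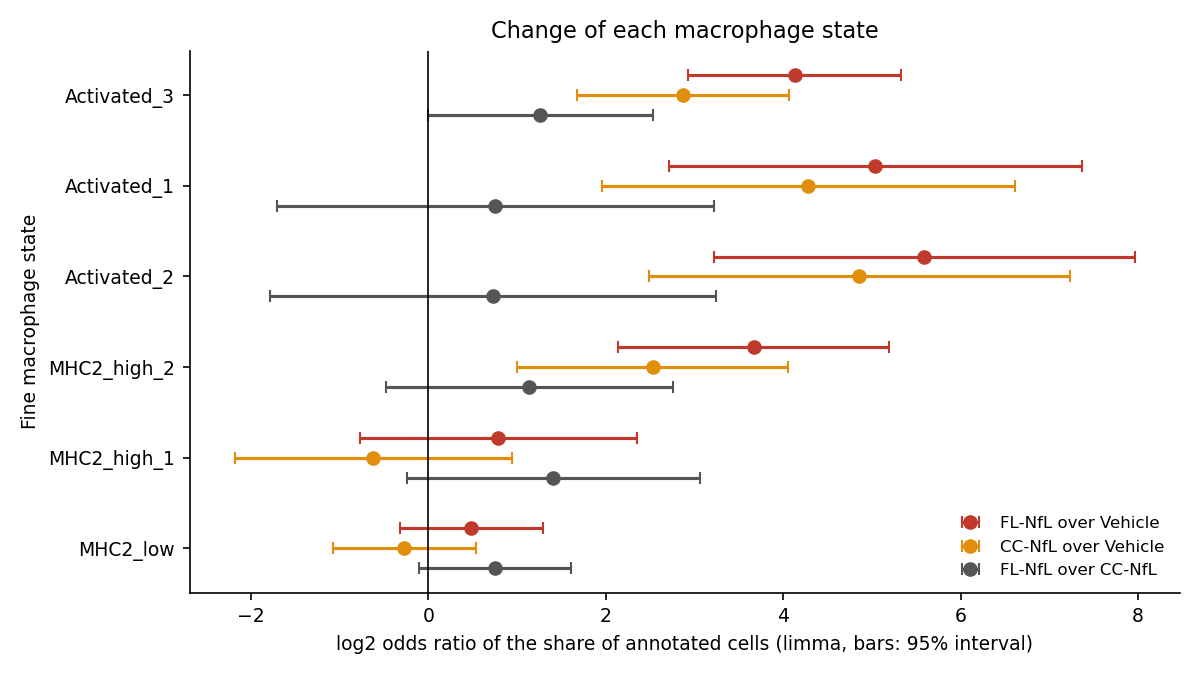
Log2 odds ratios of the share of annotated cells for 6 fine macrophage states, for FL-NfL over vehicle, CC-NfL over vehicle and FL-NfL over CC-NfL, with 95% intervals from limma over 10 libraries. Activated_3 lies at 4.13 for FL-NfL and 2.87 for CC-NfL over vehicle, with narrower intervals than Activated_1 and Activated_2.

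Macrophages as a class made up 5.92 percentage points more of annotated cells after FL-NfL than after vehicle, and Activated_3 accounted for 1.73 of these points, or 29.2%. After CC-NfL the class was 2.60 points above vehicle, of which Activated_3 accounted for 0.660, or 25.3%. Leaving out single libraries put these parts at 26.7% to 30.4% for FL-NfL and 22.4% to 32.3% for CC-NfL. Activated_1 and Activated_2 differed from vehicle by 1.24 and 1.23 points after FL-NfL, less than Activated_3. After CC-NfL they differed by 0.965 and 0.764 points, more than Activated_3.

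The relation of Activated_3 to the activated states most like it was tested directly, as the log2 ratio of cells (0.5 added to each count). The ratio of Activated_3 to Activated_2 averaged 0.42 ± 0.71 over the NfL libraries (SD, n = 6) and 2.03 ± 1.49 over the vehicle libraries (SD, n = 4). This difference of -1.61 had an exact permutation p of 0.0429, and 0.343 after adjustment over the 8 ratios compared, so it did not pass. The ratio to Activated_1 averaged 0.25 ± 0.78 over the NfL libraries and 1.26 ± 1.74 over the vehicle libraries, a difference of -1.01 with an exact permutation p of 0.243. It was -0.28 without vehicle replicate 1 and -1.61 without vehicle replicate 2. For FL-NfL over CC-NfL the differences were 0.49 for the ratio to Activated_1 (exact permutation p = 0.700) and 0.52 for the ratio to Activated_2 (exact permutation p = 0.500), with 3 libraries each. Without CC-NfL replicate 3 the first of these turned to -0.083. The vehicle ratios rest on 5, 12, 15 and 7 activated macrophages per library.

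Within the activated macrophages of the NfL libraries, the part held by Activated_3 was higher in each library of batch b1 than in those of b2. It was 45.1%, 50.7%, 43.2% and 41.9% in the 4 NfL libraries of batch b1, and 33.3% and 20.7% in the 2 of batch b2. The lowest exact 95% bound in b1 was 28.3% (CC-NfL replicate 1, 44 activated macrophages), and the intervals in b2 were 29.4% to 37.3% for FL-NfL replicate 3 and 17.7% to 24.0% for CC-NfL replicate 3. The batch means were 45.2% ± 3.88 in b1 (SD, n = 4) and 27.0% ± 8.87 in b2 (SD, n = 2), and the exact permutation p was 0.0667, the smallest that 4 against 2 libraries allow. As a share of all macrophages with a state the same libraries averaged 22.8% ± 4.10 in b1 and 20.1% ± 4.93 in b2 (exact permutation p = 0.6). Activated_3 was the largest of the 3 activated states in each of the 4 NfL libraries of b1. In b2 Activated_1 was the largest, with 197 cells in FL-NfL replicate 3 and 301 in CC-NfL replicate 3, against 187 and 136 Activated_3 cells. Batch b2 also had more annotated cells per library and a higher part of barcodes annotated, and the part of these in the difference was not tested.

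**Figure D3:**
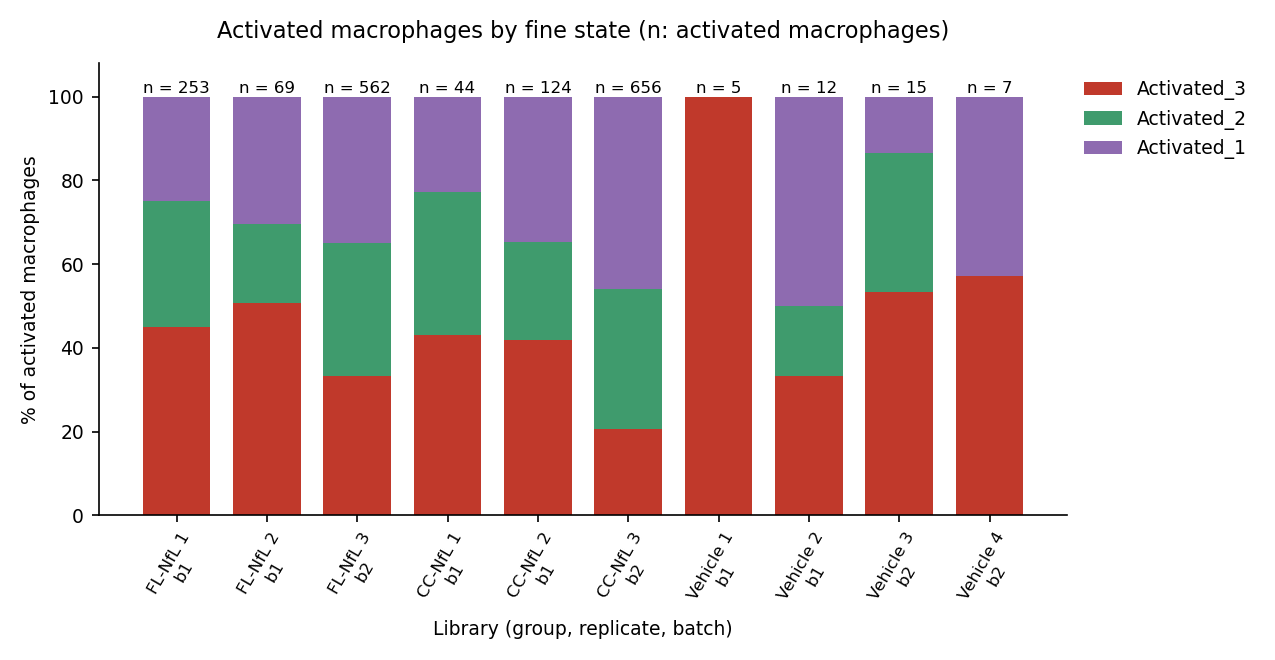
Activated macrophages of each library divided into Activated_3, Activated_2 and Activated_1 (percent, with the number of activated macrophages above each bar), for FL-NfL, CC-NfL and vehicle libraries. Activated_3 holds 41.9% to 50.7% in the NfL libraries of batch b1 and 20.7% to 33.3% in those of b2, while the vehicle bars rest on 5 to 15 cells.

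The submitters' maps place cells with like expression near each other, and since the states were made from the same expression, the place of the state on them is a description. On the map of all cells, 563 of 564 Activated_3 cells had macrophages as the majority of their 15 nearest cells, 1 lay among microglia, and 0 had a neighbour from the class of other immune cells. On the separate macrophage map, 93.0% of the 15 nearest macrophages of an Activated_3 cell were Activated_3 on average, 6.27% were Activated_2 and 0.662% were Activated_1. MHC2_low, MHC2_high_1, granulocytes and proliferating cells gave 0 neighbours, and MHC2_high_2 gave 0.0946%. Of the 30 Activated_3 cells that did not have a majority of their own state around them, 29 had Activated_2 as the leading other state. The activated states lay in adjoining bands along the second map axis, with median positions of -22.5 for Activated_3, -11.6 for Activated_2 and -0.38 for Activated_1 in arbitrary units. Activated_3 stood at one end of this order and bordered on Activated_2.

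FL-NfL and CC-NfL cells of the state overlapped widely on the macrophage map. The median position on the second axis was -23.8, -22.2 and -23.1 in the FL-NfL libraries and -21.8, -21.9 and -22.0 in the CC-NfL libraries, so the FL-NfL medians lay farther from Activated_2 in 3 of 3 libraries (exact permutation p = 0.100, the smallest possible). Cells without a majority of their own state around them made up 3.51%, 2.86% and 4.81% of Activated_3 cells in the FL-NfL libraries and 10.5%, 3.85% and 8.09% in the CC-NfL libraries (exact permutation p = 0.2). Among the 15 nearest macrophages of other libraries, the share of Activated_3 averaged 94.1% for FL-NfL cells and 89.5% for CC-NfL cells (3 libraries each), against 98.7% for cells of the 2 vehicle libraries with at least 5 Activated_3 cells. The exact permutation p was 0.0714 for both proteins together against vehicle and 0.1 to 0.2 for the other comparisons. The smallest p possible was 0.0357 for the first and 0.1 for each of the others. None could therefore have passed after adjustment over the 4, and that none did says nothing about the difference. The sizes of these differences moved with the setting. FL-NfL minus CC-NfL was 4.60 percentage points, but 2.15 without CC-NfL replicate 1. On the map of all cells it was 1.03 with all annotated cells as neighbours and 1.04 with macrophages alone. FL-NfL minus vehicle was -4.60 points, and on the map of all cells -10.9 and -10.6 in the same order. On that map the choice of neighbours thus made little difference. The vehicle libraries left out, replicates 2 and 4 with 4 Activated_3 cells each, had 100% and 80% Activated_3 neighbours. With them the vehicle mean was 94.3% ± 9.64 (SD, n = 4), and the differences from it were -0.27 points for FL-NfL and -4.87 points for CC-NfL. In a small group left of -5 on the first axis, a limit chosen after the map was seen, lay 8 of 336 FL-NfL, 14 of 207 CC-NfL and 5 of 21 vehicle Activated_3 cells. The vehicle cells came from replicate 1 (3 cells) and replicate 4 (2 cells), with 0 in replicates 2 and 3. CC-NfL replicate 3 held 9 of the 14. These are cells pooled over libraries, and the difference between groups was not tested.

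**Figure D4:**
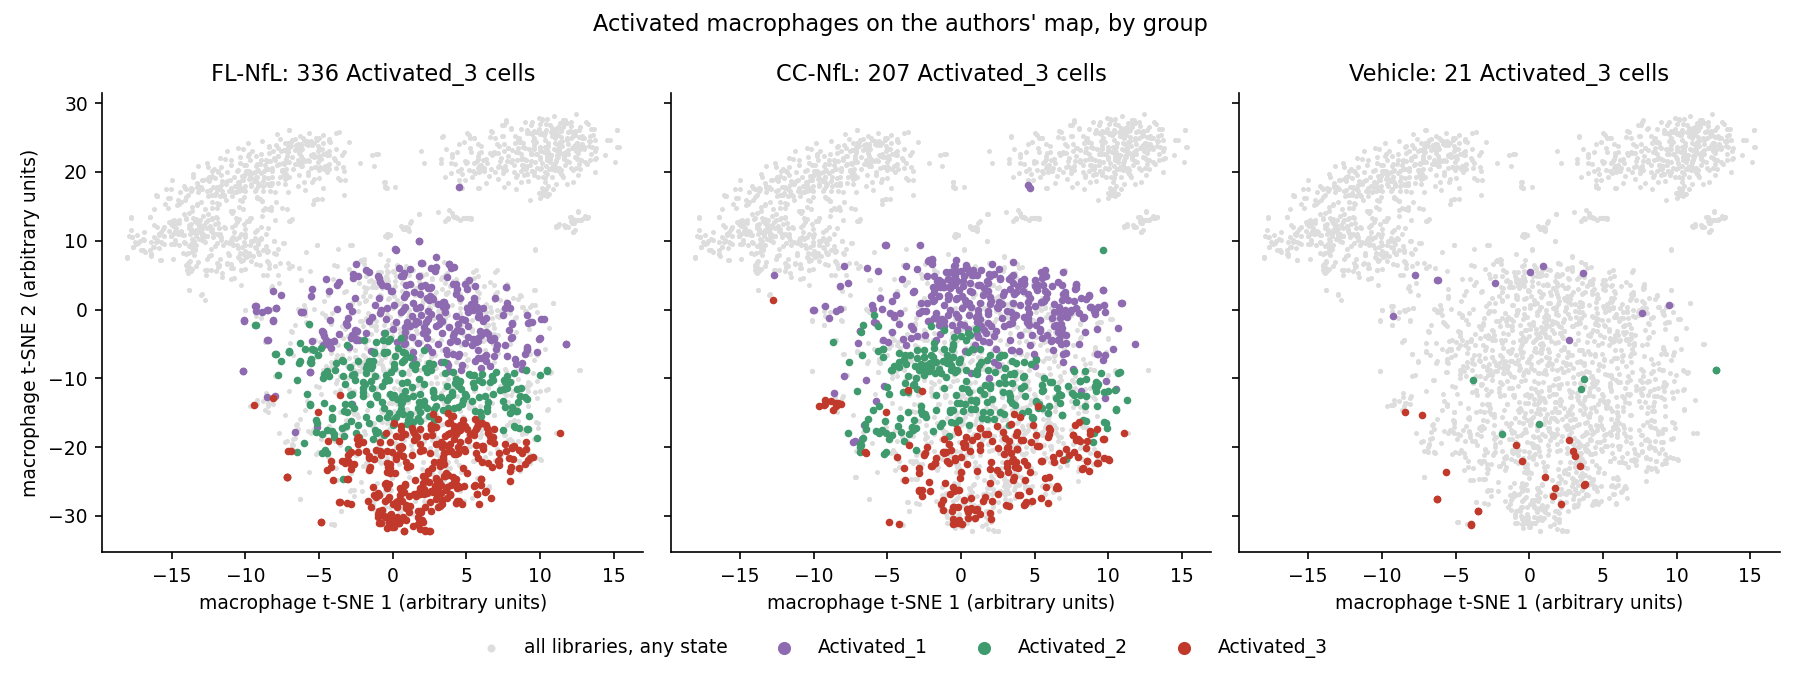
The submitters' t-SNE map of macrophages (both axes in arbitrary units), with activated cells of FL-NfL, CC-NfL and vehicle libraries coloured by fine state over all macrophages in grey. Activated_3 fills the lower end in all groups, with 336 FL-NfL, 207 CC-NfL and 21 vehicle cells, and borders on Activated_2.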

How the data were processed

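The submitters' processing notes name Cell Ranger 6.0.1 and genome build GRCm38. How cells were filtered, how doublets were handled and how clusters were made and named is not given in the sources used here. Of the processed files, 1 table deposited by the authors was analysed, which lists 108266 barcodes, of which 39352 carry no annotation. It gives categories per cell (condition, batch, cluster, class and state) and map positions, a score in arbitrary units that the authors computed. Condition and batch matched the labels in all 68914 annotated cells. Cells were counted per library, and the library was the replicate.

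Each library's count gave log2 odds, with 0.5 cells added to the item and to the remaining cells. The 10 libraries entered 1 model of group and batch in limma 3.58.1 under R 4.3.3. The 25 items were the undivided classes and the fine microglial and macrophage states that averaged 10 or more cells per library. Activated_1, Activated_2, Activated_3 and MHC2_high_2 had fewer than 10 cells in each vehicle library and met this limit through the NfL libraries. With no filter, each call of Activated_3 against vehicle was kept. For shares of macrophages, the 13 macrophages without a state were left out. Changes were called at an adjusted p below 0.05. Single values were compared by exact two-sided permutation over libraries, and map neighbours were found with scikit-learn 1.9.0. The fit was tested on simulated data. The simulated vehicle shares were means over all libraries and held no batch effect. The simulation therefore did not cover the low Activated_3 counts of the real vehicle libraries. No gene values were used, so no gene is named with a value; the rule was to give each fine macrophage state with its values. The members and lists were chosen with earlier results of these data known.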

Additional observations from a re-analysis of the deposited data

How the results depend on the processing

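Alternatives were run for the Activated_3 shares, its ratios to Activated_1 and Activated_2 and its map neighbours, and not for the other values. These kept their direction in every alternative run except 1. As a share of annotated cells, the log2 odds ratio of Activated_3 without single libraries ran from 3.84 to 4.49 for FL-NfL, 2.37 to 3.26 for CC-NfL, 0.84 to 1.69 for FL-NfL over CC-NfL and 3.22 to 3.68 for both proteins. As a share of macrophages it ran from 1.84 to 2.29, 1.59 to 1.76, 0.18 to 0.62 and 1.75 to 1.98. For CC-NfL as a share of annotated cells the call ended on the arcsine scale (0.056 in arcsine units) and in batch b1 alone (2.18). In batch b1 alone it also ended for both proteins (2.93) and, as a share of macrophages, for FL-NfL (1.77) and CC-NfL (1.53), where 2 libraries per group remain. The difference between the proteins as a share of macrophages passed only in the quasi-binomial model (0.57). The log2 ratio to Activated_1 for FL-NfL over CC-NfL, 0.49 with all libraries, ran from -0.083 without CC-NfL replicate 3 to 0.94, and passed in none of these.

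With the replicate number as a block in place of batch, the log2 odds ratios as a share of annotated cells were 3.87 for FL-NfL and 2.61 for CC-NfL, and no call changed under the block. Only vehicle has a replicate 4, so the block takes up that library. Both estimates equal those with batch as a term and vehicle replicate 4 left out. Between the proteins the value under the block was 1.26 (adjusted p = 0.491 in limma). Deviations from the group means over 25 items correlated at 0.22 to 0.52 in the 3 same-numbered pairs of FL-NfL and CC-NfL libraries, while pairs with vehicle gave -0.32 to 0.21, and 4 of 9 libraries correlated best with their own number. The 24 pairs of different number ran from -0.51 to 0.48. In both NfL groups the number is also tied to batch, since replicate 3 alone is in b2. These correlations therefore do not settle whether the numbers pair the libraries. Leaving out granulocytes and proliferating cells and leaving out shared barcodes were chosen after seeing the data and ended no call. The map of all cells and the keeping of all vehicle libraries, also chosen then, were run for map neighbours, where there was no call to end. The vehicle values rest on 4 to 8 Activated_3 cells per library, which limits every ratio to vehicle.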
